A study of Saccharomyces cerevisiae with 4 samples.

Results

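The 32 genes described here build or guard the cell wall of budding yeast (Saccharomyces cerevisiae). They comprise 4 PIR proteins, 9 GPI mannoproteins and 5 genes of the families that elongate glucan or join chitin to it. The others are 4 glucan hydrolases, 3 genes of glucan synthesis, 3 chitin synthases and 4 genes of wall integrity signalling. All 32 were taken by name from the annotation of the arrays, out of 5697 genes measured. For 30 of them the arrays' own annotation gave the gene. CWP2 and CCW14 stood there under older designations and were matched through the platform's table. Each of the 32 had 1 probe set of its own, which lay above the low-signal floor and above the level of the negative controls on all 4 arrays.

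Messenger RNA was measured in cultures that overexpressed either KIN28, which encodes the TFIIH kinase that phosphorylates RNA polymerase II, or POG1, a nuclear factor linked to recovery from pheromone arrest. Each culture grew exponentially at 25 °C in synthetic medium with 2% glucose and was sampled before (0 min) and at 60 min of 200 mM lithium chloride. The 4 groups, KIN28 at 0 and 60 min and POG1 at 0 and 60 min, had 1 Affymetrix YG-S98 array each. The series title sets the experiment in the stress sensitivity of rsp5 mutants, RSP5 being an essential ubiquitin ligase. Neither culture has its RSP5 genotype given in the labels, nor do they give the plasmid or promoter that drove overexpression, which of the drop-out media each culture grew in, or whether both times came from 1 flask. A culture with an empty vector and an untreated culture at 60 min were not analysed here, so lithium, time in culture and handling cannot be told apart. In whole cultures, fewer cells that express a gene and less RNA per cell cannot be told apart.

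The yeast wall is a mesh of β-1,3-glucan, branched with β-1,6-glucan and stiffened by a little chitin, under a coat of mannoproteins. Most of the coat proteins are held through the remnant of a GPI anchor, and the PIR proteins are bound to β-1,3-glucan through an alkali-sensitive linkage. When the wall is weakened, membrane sensors activate RHO1 and the kinase PKC1, which signals through a MAP kinase cascade to SLT2 and the transcription factor RLM1, and RLM1 in turn activates wall genes.

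Levels below are deposited intensities divided by the median of their array, so a level of 1 is the median probe set. The overexpressed genes matched the labels. KIN28 stood at 71.9 and 64.9 in its own culture against 1.16 and 0.873 in the POG1 culture, and POG1 at 58.2 and 75.1 in its own culture against 0.219 at 0 min and the array floor of 0.226 at 60 min in the KIN28 culture. The α-cell pheromone gene MF(ALPHA)1 was at 5.32 to 54.6 on the 4 arrays. MF(ALPHA)2, STE3 and SAG1, also α-cell genes, were above the negative controls (0.250 to 0.568) on all 4. The a-cell genes MFA1 and BAR1 were under the controls on all 4. STE2, the a-cell receptor gene, was at 0.298 to 0.560, and above the controls only on the KIN28 array at 60 min (0.560 against 0.250). MFA2, an a-cell pheromone gene, was above them on that array (0.732) and on the POG1 arrays (0.734 and 1.35). On the POG1 array at 60 min it exceeded STE3 (0.766). The signal of the 3′ end over the 5′ end of SRB4, a control for RNA length, was 7.50 on the KIN28 array at 0 min and 3.70 to 4.65 on the other 3, so that array stood apart. The same ratio for ACT1 was 1.92 on that array, also the highest of the 4, and 1.31 to 1.73 on the other 3. For SPT15 it was 2.79 there and 2.34 to 3.83 on the others. With 1 array per group, a difference between 2 arrays has no replicate check, and a 2-fold difference is used below as a size and not as a test. For genes with 2 probe sets of their own, the SD of 1 probe set around the gene's mean change was 0.33 to 0.75 on the log2 scale over the 4 comparisons (50 to 54 genes each).

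The first question was how these genes stood after 60 min of lithium in each culture. In the KIN28 culture, 7 of the 32 differed at least 2-fold between the times (21.9%), where 24.9% of the 5463 genes above the floor did. PIR3, CWP1, SED1, PRM5 and YPS1 were higher (5 of 32, against 12.8% of all genes) and TIR1 and GAS3 were lower (2 of 32, against 12.1%). In the POG1 culture 9 of the 32 differed at least 2-fold (28.1%), against 27.2% of 5480 genes. PIR3, CWP1 and YPS1 were higher (3 of 32, against 12.0%) and TIR1, TIR2, TIR3, GAS1, UTR2 and SCW10 were lower (6 of 32, against 15.3%). The share of the wall genes that moved was therefore near the background in both cultures. PIR3, CWP1, TIR1 and YPS1 passed 2-fold the same way in both (4 of 32), as did 807 of the 5697 genes measured. The median log2 change of the 32 was 0.19 in the KIN28 culture and -0.11 in the POG1 culture, beside 0.02 and -0.07 over all genes.

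These counts depend on how the arrays are put on 1 scale. Among all genes, 701 were at least 2-fold higher and 659 lower in the KIN28 culture, which became 1262 and 383 with unscaled intensities and 1423 and 353 with the arrays set equal on the bacterial hybridization controls. In the POG1 culture 656 were higher and 837 lower, which became 386 and 1398, and 387 and 1387. Those scalings took the all-gene median of the KIN28 response from 0.02 to 0.40 and 0.48, and in the POG1 response from -0.07 to -0.41 and -0.40. Among the 32, the split in the KIN28 culture became 8 higher and 2 lower unscaled, and 9 and 1 on the hybridization controls. Scaling on the 75th percentile gave 3 and 3 there, beside 600 higher and 762 lower of all genes. In the POG1 culture the split of the 32 became 2 higher and 9 lower, both unscaled and on the hybridization controls. Quantile normalization gave 5 and 6 there, beside 683 and 809 of all genes.

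**Figure D1:**
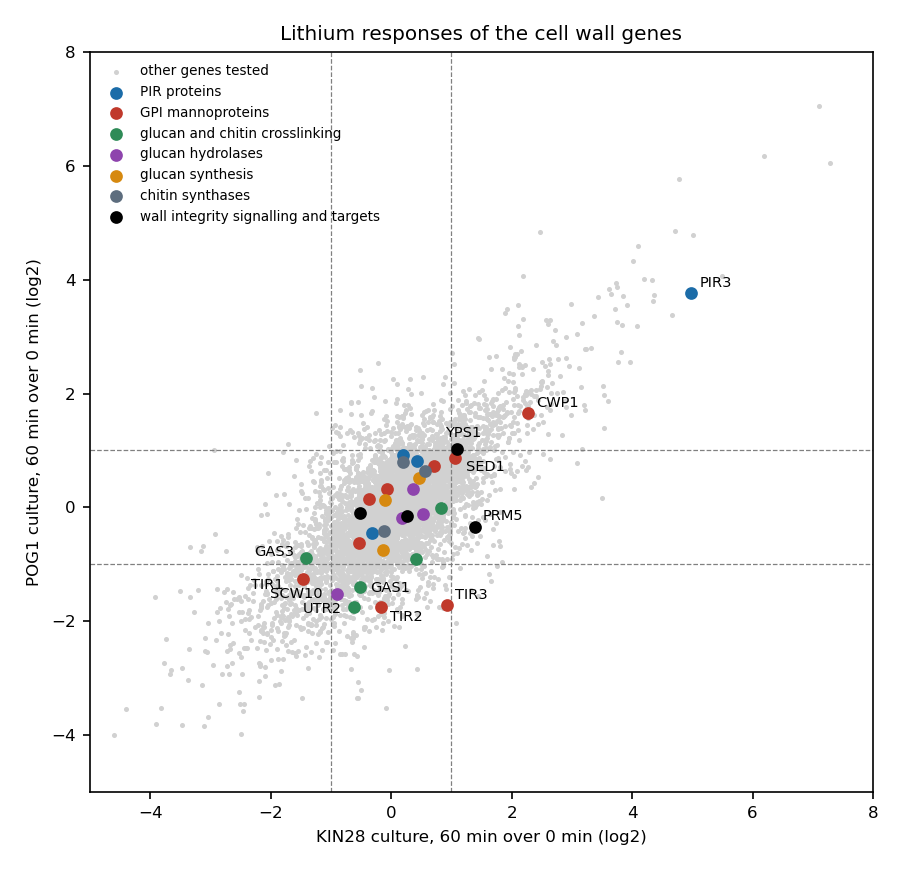
Change from 0 to 60 min of lithium (log2) in the KIN28 culture (horizontal axis) and the POG1 culture (vertical axis), 1 array per point of each difference. Grey points are the other genes tested, coloured points the 32 wall genes by role, dashed lines mark 2-fold, and PIR3 stands at 4.99 and 3.76 while TIR3 and PRM5 lie to the lower right.

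A change shared by both cultures was tested with limma over all 4 arrays, with culture as a block and p-values adjusted by Benjamini-Hochberg over the 5429 genes above the floor on at least 2 arrays. Each gene had 1 residual degree of freedom, to which the fit across genes added 7.74, and any difference between the responses of the cultures counts as error. The p-values measure the spread between these 4 arrays only. At an adjusted p under 0.05, 10 of the 32 wall genes passed (31.2%), beside 24.7% of all genes tested. The variance prior of the test followed intensity, and this all-gene share was not matched to the 32 for level. PIR3, CWP1, SED1, CCW14 and YPS1 rose (5 of 32, against 11.2%) and TIR1, GAS1, GAS3, UTR2 and SCW10 fell (5 of 32, against 13.4%). At an unadjusted p under 0.05, 15 of the 32 passed, beside 36.7% of all genes. With unscaled intensities only PIR3 and CWP1 of the 32 passed, beside 313 of all 5429 genes tested. With a variance prior that ignored intensity, 6 of the 32 passed, beside 941 of the 5429. Of these 6, PIR3, CWP1 and YPS1 rose, and TIR1, GAS3 and SCW10 fell.

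**Figure D2:**
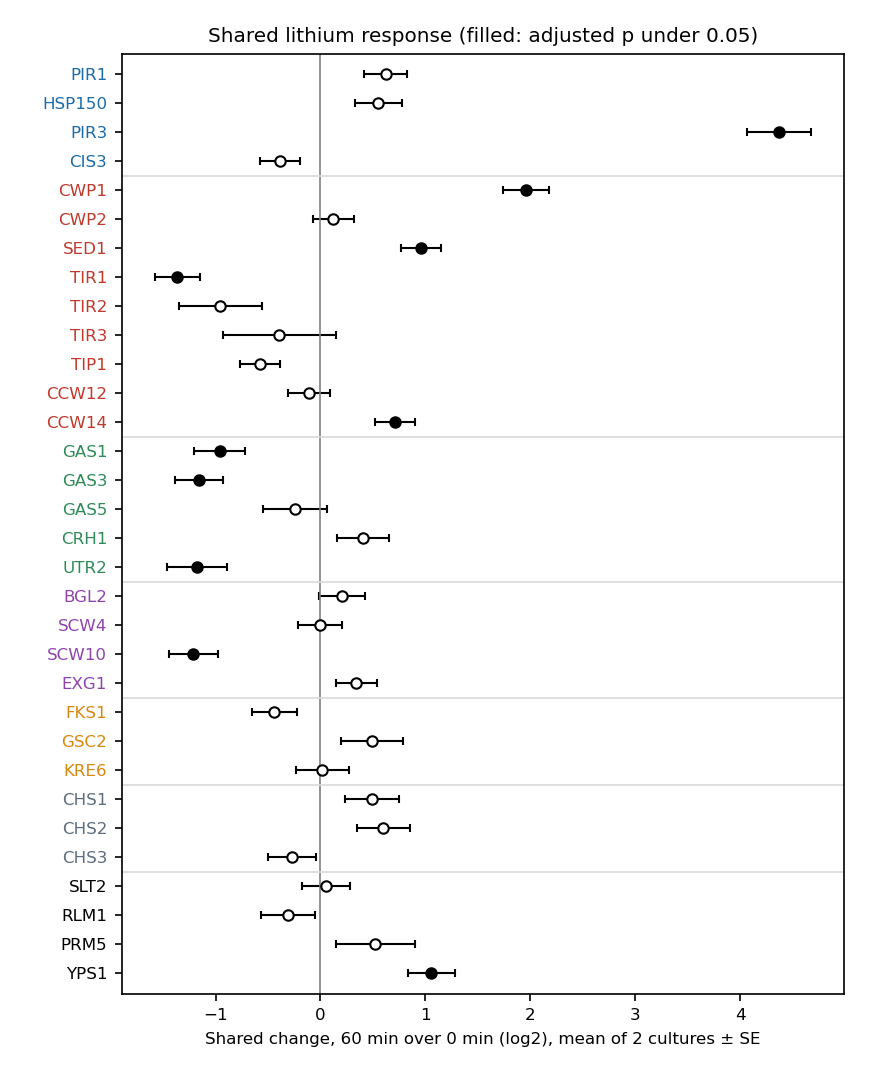
Shared change from 0 to 60 min of lithium for each wall gene (log2, mean of the 2 cultures, bars ± SE from limma), with filled points where the adjusted p was under 0.05. PIR3 at 4.37 and CWP1 at 1.96 stand farthest to the right, and TIR1, SCW10, UTR2, GAS3 and GAS1 are the filled points to the left of 0.

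The PIR proteins, mannoproteins with internal repeats, held the highest rise of the 32. PIR3 stood at 1.03 before and 32.6 after lithium in the KIN28 culture, and at 2.27 and 30.8 in the POG1 culture. It was thus 31.7-fold and 13.6-fold higher after lithium, and both lithium arrays lay far above both arrays at 0 min. The shared rise was 4.37 ± 0.30 on the log2 scale (SE, adjusted p = 6.52e-05), and it passed under all 10 alternative settings of the test. Its relatives did not pass. PIR1, which adds to wall stability, went from 38.0 to 51.1 in the KIN28 culture and from 35.6 to 62.7 in the POG1 culture. Both lithium arrays were above both earlier arrays, and the shared change was 0.62 ± 0.20 (adjusted p = 0.054). How many of all genes separate by time in this way is not given, so here and for later genes it has no background. PIR1 passed with 75th percentile scaling, with quantile normalization and among genes above the floor on all 4 arrays. HSP150, a PIR protein first known as a secreted heat shock glycoprotein, went from 74.6 to 85.2 and from 64.0 to 120.4, a shared change of 0.55 ± 0.22 (adjusted p = 0.11) that passed under quantile normalization. CIS3, the other PIR gene, read 74.2 before and 59.6 after lithium in the KIN28 culture, against 64.6 and 47.0 in the POG1 culture. Its lithium values were below its earlier ones in both cultures, by a shared log2 change of -0.39 ± 0.19 (adjusted p = 0.18), and quantile normalization, unscaled intensities and the hybridization controls turned the KIN28 sign so that all 4 PIR genes were above 0 there.

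Among the GPI mannoproteins, CWP1, SED1 and CCW14 rose, TIR1 fell, and 5 did not pass. CWP1, a mannoprotein linked to β-1,6-glucan, stood at 13.3 and 64.0 in the KIN28 culture and at 24.0 and 75.5 in the POG1 culture. It was 4.80-fold and 3.14-fold higher in lithium, with no overlap between the times. The shared rise was 1.96 ± 0.22 (adjusted p = 0.000481), and it too passed under all 10 alternatives. CWP2, the gene next to it and also a major mannoprotein of the wall, read 113 before and 107 after lithium in the KIN28 culture, against 107 and 133 in the POG1 culture. Its shared change was 0.12 ± 0.20 (adjusted p = 0.70), and the times overlapped. SED1, a mannoprotein typical of stationary cells, went from 44.7 to 93.4 and from 61.2 to 111, with both lithium values above both earlier ones. Its shared rise was 0.96 ± 0.19 (adjusted p = 0.0070). CCW14, a mannoprotein of the inner wall layer, went from 27.5 to 45.0 and from 34.7 to 57.1. The responses of the cultures were alike at 1.64-fold each, and the shared rise was 0.71 ± 0.19 (adjusted p = 0.026). SED1 and CCW14 lost their calls with unscaled intensities and with the constant variance prior.

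TIR1, TIR2, TIR3 and TIP1 encode related serine-rich mannoproteins known from cold shock and anaerobic growth. TIR1 went from 13.4 to 4.86 in the KIN28 culture and from 15.4 to 6.45 in the POG1 culture. Both lithium values were below both earlier ones, and the shared change was -1.36 ± 0.22 (adjusted p = 0.0024), lost only with unscaled intensities among the 10 alternatives. TIP1 read 43.3 before and 30.1 after lithium in the KIN28 culture, against 43.9 and 28.4 in the POG1 culture, a shared change of -0.58 ± 0.19 (adjusted p = 0.060) that passed with 75th percentile scaling. TIR2 read 1.92 before and 1.72 after lithium in the KIN28 culture, against 2.40 and 0.716 in the POG1 culture, so that the POG1 array in lithium stood alone below the others, 3.36-fold under its own start. The shared change of TIR2 was -0.95 ± 0.40 (adjusted p = 0.12) and passed with 75th percentile scaling. TIR3 read 0.828 before and 1.58 after lithium in the KIN28 culture, against 3.09 and 0.939 in the POG1 culture. It was 1.90-fold higher after lithium in the first and 3.29-fold lower in the second, and its highest value was the POG1 array at 0 min. Its shared change was -0.39 ± 0.54 (adjusted p = 0.65), with the widest error of the 32. CCW12, an abundant mannoprotein of growing cells, read 222 before and 172 after lithium in the KIN28 culture, against 202 and 224 in the POG1 culture (shared change -0.11 ± 0.20, adjusted p = 0.74). Its deposited intensities of 9301, 9357, 12247 and 10744, in the order KIN28 0 and 60 min and POG1 0 and 60 min, lay close to the array maxima of 10291, 9357, 12668 and 11467, so whether its probe set could still follow a rise was not tested.

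**Figure D3:**
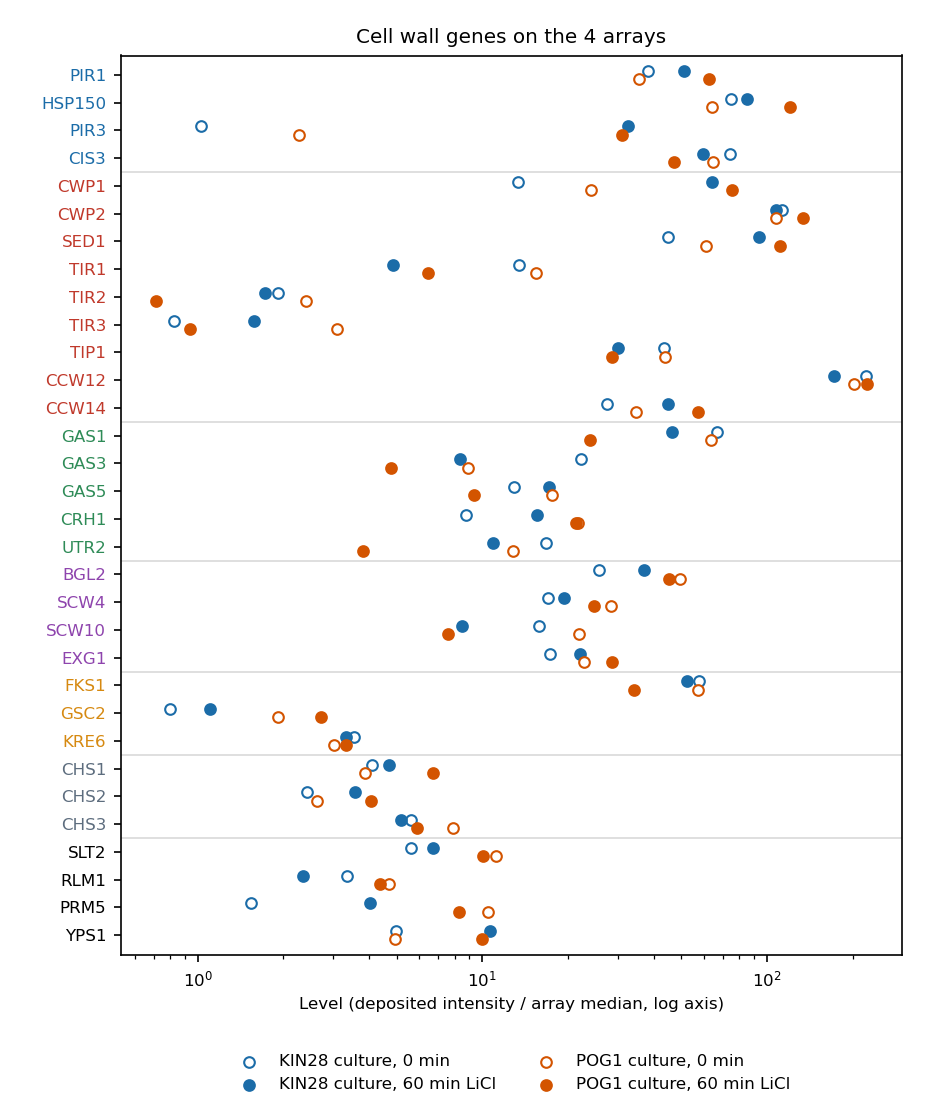
Level of each wall gene on the 4 arrays (deposited intensity over array median, log axis), with open points for 0 min and filled points for 60 min of lithium, blue for the KIN28 and orange for the POG1 culture, and gene names coloured by role. Each line is read by itself, since levels of different probe sets are not comparable; PIR3 and CWP1 show both filled points to the right of both open ones, and TIR1 both to the left.

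The genes grouped as glucan and chitin crosslinking showed 3 falls among 5 genes and no rise, where 13.4% of all genes fell and 11.2% rose. GAS1, GAS3 and GAS5 belong to the family of β-1,3-glucanosyltransferases, which elongate glucan chains, and CRH1 and UTR2 are transglycosylases that join chitin to glucan. GAS1 read 66.5 before and 46.5 after lithium in the KIN28 culture, against 63.6 and 24.0 in the POG1 culture. It was 1.43-fold and 2.65-fold lower in lithium, the POG1 array in lithium being the lowest, and the shared change was -0.96 ± 0.24 (adjusted p = 0.020). That call was lost under 4 of the 10 alternatives, namely quantile normalization, unscaled intensities, no filter on low genes and the constant prior. GAS3 went from 22.2 to 8.33 in the KIN28 culture and from 8.92 to 4.78 in the POG1 culture. Each culture fell from its own start, while the KIN28 value in lithium was close to the POG1 value before it. The shared change was -1.16 ± 0.23 (adjusted p = 0.0072). GAS5 went from 12.9 to 17.2 in the KIN28 culture and from 17.5 to 9.37 in the POG1 culture, log2 changes of 0.42 and -0.90 (shared -0.24 ± 0.30, adjusted p = 0.61). UTR2 read 16.7 before and 10.9 after lithium in the KIN28 culture, against 12.8 and 3.80 in the POG1 culture. The POG1 array in lithium stood alone at the bottom, and the shared change was -1.18 ± 0.29 (adjusted p = 0.018), lost with unscaled intensities and with the constant prior. CRH1, the relative of UTR2, read 8.78 before and 15.6 after lithium in the KIN28 culture, against 21.7 and 21.4 in the POG1 culture. Its low value was the KIN28 array at 0 min, and the shared change was 0.41 ± 0.25 (adjusted p = 0.27). In the POG1 culture all 5 genes of this group were below their start, by a median log2 of -0.90, though CRH1, at -0.02, turned positive under 3 of 5 other scalings. Among all genes 2920 of 5480 were below their start there, with a median of -0.07.

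The glucan hydrolases and related soluble wall proteins showed a single fall. SCW10, a soluble wall protein with similarity to glucanases, went from 15.8 to 8.45 in the KIN28 culture and from 21.8 to 7.60 in the POG1 culture. Both lithium values were below both earlier ones, by a shared log2 change of -1.21 ± 0.23 (adjusted p = 0.0059), lost with unscaled intensities and when a neighbouring probe set that the platform's table also gives to SCW10 was averaged in. SCW4, its close relative, read 17.1 before and 19.4 after lithium in the KIN28 culture, against 28.2 and 24.7 in the POG1 culture, a shared change of -0.0030 ± 0.21 (adjusted p = 0.99). BGL2, a major wall glucan transferase and endoglucanase, read 25.6 before and 37.0 after lithium in the KIN28 culture, against 49.4 and 45.4 in the POG1 culture (shared change 0.20 ± 0.22, adjusted p = 0.55). For both SCW4 and BGL2 the POG1 values were above the KIN28 values at both times. EXG1, the main exoglucanase, went from 17.2 to 22.0 and from 22.8 to 28.6. Its responses were alike at 1.28-fold and 1.26-fold, and the shared change of 0.34 ± 0.20 did not pass (adjusted p = 0.25).

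No gene of glucan or chitin synthesis passed the test. FKS1 and GSC2 encode alternative catalytic subunits of β-1,3-glucan synthase, GSC2 being the form known from stress and starvation. FKS1 read 57.7 before and 52.5 after lithium in the KIN28 culture, against 57.1 and 34.0 in the POG1 culture, the POG1 array in lithium being lowest (shared change -0.44 ± 0.22, adjusted p = 0.18). GSC2 read 0.798 before and 1.10 after lithium in the KIN28 culture, against 1.91 and 2.71 in the POG1 culture. The cultures did not overlap, while the responses were alike at 1.38-fold and 1.42-fold (shared change 0.49 ± 0.30, adjusted p = 0.27). KRE6, needed for β-1,6-glucan, was within 3.02 to 3.55 on the 4 arrays, with a shared change of 0.02 ± 0.25 (adjusted p = 0.97). CHS1, the chitin synthase of repair at separation, read 4.10 before and 4.68 after lithium in the KIN28 culture, against 3.88 and 6.72 in the POG1 culture (shared change 0.49 ± 0.26, adjusted p = 0.20). CHS2, which lays down the primary septum, went from 2.42 to 3.58 and from 2.62 to 4.06, and both lithium values were above both earlier ones (shared change 0.60 ± 0.25, adjusted p = 0.12). CHS3, which makes most wall chitin, read 5.62 before and 5.17 after lithium in the KIN28 culture, against 7.88 and 5.89 in the POG1 culture (shared change -0.27 ± 0.23, adjusted p = 0.44).

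Of the wall integrity pathway and its targets, YPS1 rose. YPS1 encodes a GPI-anchored aspartyl protease of the cell surface whose transcript is known to follow wall stress. It went from 4.98 to 10.6 in the KIN28 culture and from 4.94 to 10.0 in the POG1 culture. The cultures were nearly the same at both times, the folds were 2.14 and 2.03, and the shared rise was 1.06 ± 0.22 (adjusted p = 0.0090), lost only with unscaled intensities among the 10 alternatives. SLT2, the MAP kinase, read 5.60 before and 6.70 after lithium in the KIN28 culture, against 11.2 and 10.1 in the POG1 culture (shared change 0.05 ± 0.23, adjusted p = 0.90). RLM1, the transcription factor it activates, read 3.34 before and 2.34 after lithium in the KIN28 culture, against 4.72 and 4.38 in the POG1 culture (shared change -0.31 ± 0.26, adjusted p = 0.42). For both, the POG1 values lay above the KIN28 values at either time. PRM5, a pheromone-regulated membrane protein gene and a known RLM1 target, read 1.54 before and 4.03 after lithium in the KIN28 culture, against 10.5 and 8.28 in the POG1 culture. It was 2.62-fold higher after lithium in the first culture and 1.26-fold lower in the second, and the shared change was 0.52 ± 0.37 (adjusted p = 0.35).

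The responses were then set against each other gene by gene. The KIN28 response minus the POG1 response was at least 2-fold in either direction for 6 of the 32 (18.8%), beside 15.1% of 5383 genes. Over those genes the difference had an SD of 0.73 on the log2 scale, with 2.5th and 97.5th percentiles at -1.46 and 1.63. The 6 were TIR3 at 2.64, PRM5 at 1.73, TIR2 at 1.59, GAS5 at 1.32, PIR3 at 1.22 and UTR2 at 1.14, all with the KIN28 response above the POG1 response. TIR3 and PRM5 lie outside the 97.5th percentile of all genes. For PIR3 the difference sits in the 0 min arrays, where KIN28 was 2.21-fold below POG1, and the lithium levels of 32.6 and 30.8 were alike. No test of these differences was possible with 1 array per group.

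The second question was how the cultures differed at each time. Before lithium, 6 of the 32 were at least 2-fold apart (18.8%), beside 7.67% of 5448 genes. GAS3 was 2.50-fold higher in the KIN28 culture (1 of 32, against 3.62%). PRM5, TIR3, CRH1, GSC2 and PIR3 were lower there (5 of 32, against 4.06%), by 6.81-fold, 3.73-fold, 2.47-fold, 2.39-fold and 2.21-fold. SLT2 lay just short of the threshold, at a log2 difference of -0.999. The KIN28 array at 0 min is the one with the highest 3′ to 5′ ratios of SRB4 (7.50) and ACT1 (1.92), whose part in these differences was not tested. Unscaled intensities gave 11 of the 32, all lower in the KIN28 culture, where the split of all genes went from 197 higher and 221 lower to 41 and 929 and the all-gene median from 0.07 to -0.47.

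In lithium, 4 of the 32 were at least 2-fold apart (12.5%), beside 10.7% of 5453 genes. UTR2 was 2.88-fold and TIR2 2.40-fold higher in the KIN28 culture (2 of 32, against 7.02%), and GSC2 was 2.46-fold and PRM5 2.06-fold lower (2 of 32, against 3.70%). The split of all genes, 383 higher and 202 lower, moved to 272 and 269 with the median of detected probe sets set equal, 245 and 309 with the 75th percentile, 588 and 129 unscaled and 2457 and 35 on the hybridization controls. On the hybridization controls 8 of the 32 were at least 2-fold apart, all higher in the KIN28 culture. The all-gene median, 0.16 here, became 0.94 on those controls and 0.33 unscaled. On the array median scale, the POG1 array in lithium held the lowest of the 4 values of GAS1, GAS3, GAS5, UTR2, SCW10, TIR2, TIP1, CIS3 and FKS1. It held the highest of the 4 values of PIR1, HSP150, CWP1, CWP2, SED1, CCW12, CCW14, EXG1, GSC2, CHS1 and CHS2. For CCW12 this was nearly a tie, at 224 against 222 on the KIN28 array at 0 min. The share of all genes with their lowest or highest value on this array is not given, so these ranks have no background to be read against.

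**Figure D4:**
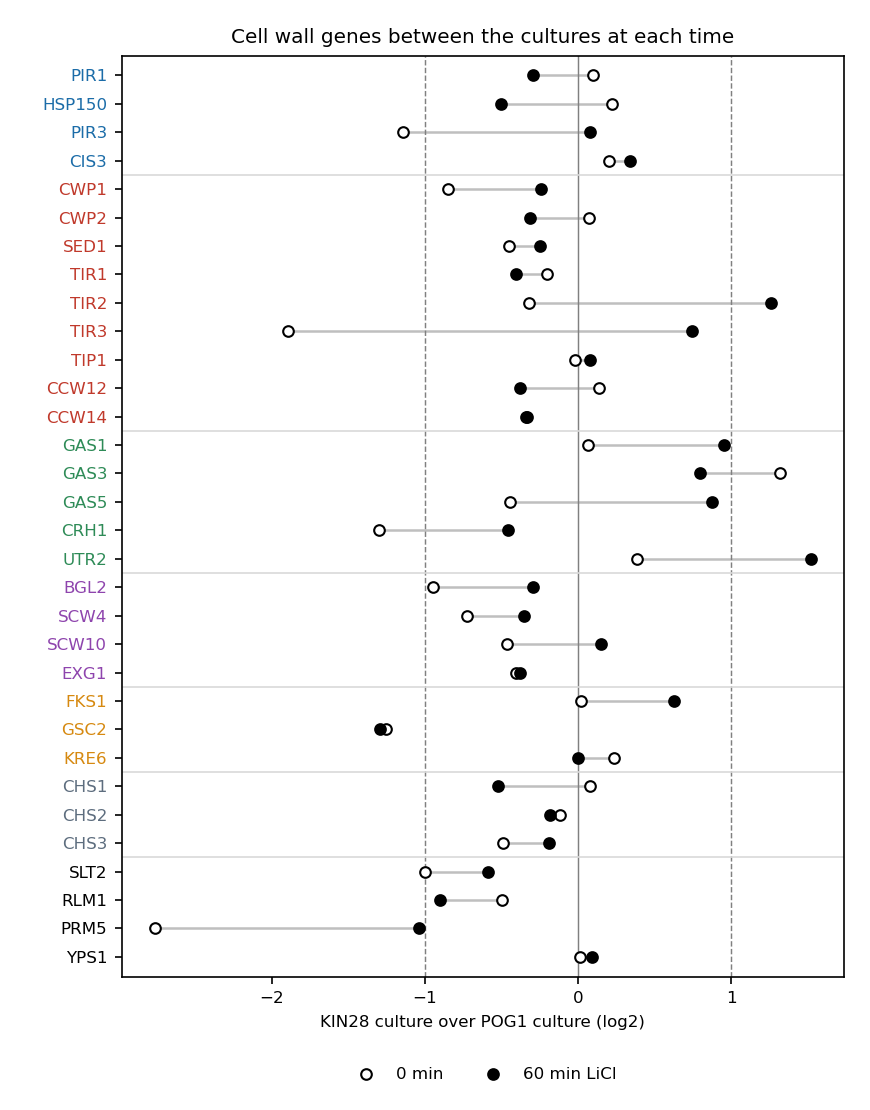
KIN28 culture over POG1 culture (log2) for each wall gene at 0 min (open) and in lithium (filled), joined by a grey line, with dashed lines at 2-fold. PRM5 and GSC2 lie beyond 2-fold below at both times, and TIR3 moves from -1.90 to 0.75.

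PRM5 and GSC2 were the members at least 2-fold lower in the KIN28 culture at both times, a position that 28 of 5341 genes shared. At 60 min PRM5 was no longer 2-fold apart with unscaled intensities or on the hybridization controls, nor was GSC2 on those controls (log2 difference -0.52). Of the 32, 14 were below the POG1 culture at both times (43.8%) and 7 above (21.9%), beside 21.7% and 39.1% of all genes. Set against the median of all genes at each time, 19 of the 32 were on the lower side at both times (59.4%) and 3 on the higher side (9.38%), where 29.4% of all genes were on each. Quantile normalization gave 17 and 3, and the other scalings move all genes of an array alike, so they leave this count as it is. The count of signs was not stable, since on the hybridization controls 3 of the 32 were below at both times and 12 above. The limma fit put the culture difference over both times at -1.90 ± 0.37 for PRM5 (adjusted p = 0.21), -1.28 ± 0.30 for GSC2 (adjusted p = 0.27) and 1.06 ± 0.23 for GAS3 (adjusted p = 0.25). No member passed an adjusted p under 0.05, where 2 of all genes did (0.0368%). At an unadjusted p under 0.05, 10 of the 32 (31.2%) and 12.3% of all genes tested were called by the same fit. Under 75th percentile scaling PRM5 passed, as 1 of 36 genes. Overexpressed gene, plasmid and medium cannot be told apart in this difference.

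Several members lie beside each other in the genome, by the gene order of the RefSeq table of the reference strain. PIR1 and PIR3 are adjacent on chromosome XI on opposite strands, with log2 shared changes of 0.62 and 4.37. CWP1 and CWP2 are adjacent on the same strand of chromosome XI, with 1.96 and 0.12. HSP150 and CIS3 are adjacent on chromosome X on opposite strands, with 0.55 and -0.39. In each of these pairs at most 1 gene passed the test. GAS1 and SCW10, with 1 gene between them on chromosome XIII, both fell, and BGL2 and SCW4, with 2 genes between them on chromosome VII, did not pass.

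Other wall genes were counted the same way from 6 lists, to be read against the 11.2% of all genes that rose and the 13.4% that fell. DFG5, which fell, and ECM33, which did not pass, each stand in 2 of the lists and are counted in both. Of 21 sensors, kinases and regulators of the PKC1 pathway, 1 rose and 1 fell in the shared test. Both were regulators, and no sensor or kinase passed. ROM1, an exchange factor of RHO1, was 3.46-fold and 3.03-fold higher in the KIN28 and POG1 cultures after lithium, and SWI6, a cofactor of cell cycle and wall transcription, was 2.74-fold and 2.06-fold lower, the latter down to 0.516, under the negative controls of that array (0.532). Of 16 further outputs of the integrity pathway, 7 rose and 6 fell. PST1, a GPI protein of the wall induced by wall damage, was 4.29-fold and 3.48-fold higher. BAG7, a RHO1 GTPase-activating protein, was at the floor in the KIN28 culture at 0 min, from which it was at least 13.6-fold higher. In the POG1 culture it was 5.87-fold higher, from a level of 0.233 that was under the negative controls of that array (0.568). YGP1, a secreted glycoprotein of starved cells, was 3.69-fold and 10.7-fold higher. YPS6, a yapsin related to YPS1, was 12.2-fold and 3.64-fold higher, from a KIN28 level of 0.265 at 0 min that was under the negative controls of that array (0.456). The other yapsins of this list did not rise. MKC7 (shared change -1.36, adjusted p = 0.012) and YPS3 (-0.90, adjusted p = 0.037) fell, and YPS7 did not pass. SVS1, also among the 6 that fell, was 2.16-fold and 2.97-fold lower.

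Of 19 further GPI and mannoprotein genes measured, 16 were tested, and 3 rose and 1 fell. The flocculins FLO1, FLO10 and FLO11 rose, and all 3 were under the negative controls at 0 min in both cultures. SAG1, the α-agglutinin and one of the α-cell markers, was 4.16-fold and 3.35-fold lower. Of 28 further genes of glucan synthesis and remodelling, 3 rose and 4 fell. SKN1, the relative of KRE6, was 2.48-fold and 2.07-fold higher, and DSE4, a daughter-specific glucanase of cell separation, was 3.82-fold and 8.74-fold lower. The POG1 level of DSE4 in lithium, 0.391, was under the negative controls of that array (0.532). SUN4, a glucanase-like protein of septation, was 3.25-fold and 3.93-fold lower, and its relative NCA3 was 14.1-fold and at least 6.60-fold higher from levels under the negative controls. Of 15 further chitin genes tested, 1 rose and none fell, and of 24 mannan genes none rose and 3 fell. The median shared log2 change was -0.02 for the PKC1 pathway genes, -0.04 for the integrity outputs, -0.26 for the GPI genes, -0.05 for the glucan genes, 0.01 for the chitin genes and -0.26 for the mannan genes, beside -0.01 over all genes.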

How the data were processed

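RNA enriched for poly(A) from 4 cultures was labelled with biotin and hybridized to 1 array each, 15 µg of cRNA at 45 °C for 18 h, per the series' design text. The authors deposited for each of 9335 probe sets an intensity on a linear scale and a ratio, which equals the intensity over the array's median per the file headers and values. The summary software and the annotation release are not given in the sources used here. The series-wide table holds the same intensity to within 0.05.

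Each deposited intensity was divided by its array median, raised to a floor at the array's 20th percentile and taken to log2. A gene's value is the mean over probe sets of that gene alone, by the open reading frame named in the files, or by the platform's table where the files name none. Probe sets of several genes (328) and windows of genomic sequence (2114) were left out, and suffixed sets, which can detect related sequences, served 214 genes with no other. Fold differences needed 1 array of the comparison above the floor. The shared change and the culture difference were fitted with limma 3.58.1 in R 4.3.3 (additive culture and time, intensity trend in the prior). This is a test over all 4 arrays, since no group has replicates. Steps were tested on simulated data with 200 changed genes. Python 3.11.15, pandas 2.3.3, numpy 2.4.6 and matplotlib 3.10.9 were used. The number of arrays limits the precision.

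All 32 members are named. From the other lists up to 4 genes each are named, those that passed 2-fold the same way in both cultures by the size of the smaller change. DFG5 and ECM33 are named besides as shared between lists. SVS1, MKC7, YPS3 and YPS7 are named to show integrity outputs that fell or did not pass. The members and lists were chosen with earlier results of these data known. Alternatives varied the scaling, floor, filter, probe sets, threshold and variance prior. Averaging in every probe set under its platform table name, windows included, was added after the data were seen. Sequences were not used here.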

Additional observations from a re-analysis of the deposited data

Results flagged for a closer look

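In 3 members the responses of the cultures ran in opposite directions by at least 1.2-fold each, and these differences were not tested, since each response rests on 1 array per time. How many of all genes meet this rule is not given, so the 3 have no background. The responses had the same sign for 22 of the 32, beside 4182 of the 5697 genes measured, those at the floor included. TIR3, a serine-rich mannoprotein gene, had a KIN28 response of 0.93 and a POG1 response of -1.72 on the log2 scale, a difference of 2.64. PRM5, a known RLM1 target, had 1.39 and -0.34, a difference of 1.73. GAS5, a glucanosyltransferase gene, had 0.42 and -0.90, a difference of 1.32. Over 5383 genes the same difference had an SD of 0.73.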

How the results depend on the processing

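The labels give no replicate numbers, and the shared test already holds culture as its block. No array could be left out, since 3 arrays leave the fit no residual degrees of freedom. Among counts of all genes and of the 32, 122 stayed within 1.5 times of the value reported, and 22 did not. The 22 include counts at thresholds of 1.5-fold, 3-fold and an adjusted p of 0.10, which change with the threshold itself. Why the other settings moved their counts was not tested. For single members, 15 calls of the limma tests were lost and 7 gained over all alternatives, 51 values crossed the 2-fold line one way or the other, and no called value reversed. A threshold of 1.5-fold gave 2554 genes in the KIN28 response, 2825 in the POG1 response, 1466 between the cultures at 0 min and 1616 at 60 min. A threshold of 3-fold gave 565, 632, 71 and 138. Between the cultures at 0 min, unscaled intensities gave 970 genes and 11 of the 32, a floor at the 40th percentile 185 genes and a floor at the negative controls 217. At 60 min the hybridization controls gave 2492 genes and 8 of the 32, and the 40th percentile floor 282 genes. In the shared test, unscaled intensities gave 313 genes and 2 of the 32, and the constant prior gave 6 of the 32, beside 941 of all genes. In the culture test, 75th percentile scaling gave 36 genes and 1 of the 32, while leaving out suffixed probe sets or an adjusted p of 0.10 gave 4 genes each. PIR3 and CWP1 passed the shared test in all 10 alternatives, and SED1, TIR1, GAS3, UTR2, SCW10, CCW14, YPS1 and GAS1 in 6 to 9. Scaling on the hybridization controls was not among those 10. With 1 array per group, signals near the floor limit the low members, of which PIR3, TIR2, TIR3, GSC2 and PRM5 had levels under 2 on at least 1 array.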

Other observations

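The arrays also carry probe sets for windows of genomic sequence that the platform's table assigns to the glucan synthase genes FKS1 and GSC2 and that were kept out of the gene values. All 7 FKS1 windows were above the negative controls on all 4 arrays, with 3 of 7 above 0 in each lithium response. Of the 6 GSC2 windows, 1 was above the negative controls on all 4 arrays. That window is a suffixed set, which can detect related sequences. It stood at 0.80 and 0.95 in the KIN28 culture and at 1.31 and 1.58 in the POG1 culture, the same order of cultures as in the probe set of GSC2. Another window, above the controls on 3 arrays, had KIN28 above POG1 at 0 min (0.673 against 0.392) and below it at 60 min (0.529 against 1.65). The remaining windows, above the controls on fewer arrays, did not share a single order.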
